A study of Mus musculus with 6 samples.

Results

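Potassium channel genes of the blood vessel wall were examined in the aorta of mice that lack both Apoe and Adora1 (DKO) and of mice that lack Apoe alone (ApoE-KO). The set was made of 8 named genes, which are Kcnj15, Kcnj8, Abcc9, Kcnj2, Kcnma1, Kcnmb1, Kcna5 and Kcnk3. All 8 had a probe set naming no other gene, out of 19752 genes with such a probe set, and where a gene had several, the row was chosen by its highest average across the arrays. Kcnj15 was selected on its difference between the genotypes in these same arrays, so its difference is described here and carries no test. The groups held 3 arrays each, numbered 1 to 3, from mice on a C57BL/6 background aged 20 weeks. ApoE-KO mice carry apoe-/- per the labels, and DKO mice carry apoe-/- together with adora1-/-. Every sample therefore lacks Apoe, and no wild-type aorta was among the 6. The series text names the control group as mice lacking Adora1, whereas the title, source and genotype of each control sample name apoe, and the groups here follow the samples.

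Potassium channels let potassium ions leave the cell, which holds the membrane potential of arterial smooth muscle negative, keeps voltage-gated calcium channels closed and favours relaxation. ATP-sensitive (KATP) channels open when metabolism falls, large-conductance calcium-activated (BK) channels oppose a rise in calcium, voltage-gated channels oppose depolarisation, and inward rectifiers and tandem-pore leak channels set the resting potential. Apoe encodes a lipoprotein ligand whose loss leads to atherosclerosis in mice. Adora1 encodes the adenosine A1 receptor, which couples to inhibitory G proteins. In heart muscle and neurons this receptor opens G protein-gated inward rectifiers.

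Values are log2 intensities, so 1 unit is a doubling, and having 3 arrays a group limits the precision. Array medians lay between 8.01 and 8.02. Adora1 is not analysed here, and Apoe read 9.47 to 10.04 in ApoE-KO against 9.39 to 9.72 in DKO, which checks no label without a wild-type array. The smooth muscle genes Acta2 and Myh11 read 13.97 to 14.06 and 13.23 to 13.61 over the 6 arrays, and the endothelial gene Pecam1 read 11.60 to 12.03. Both replicate 3 arrays stood apart in lung epithelial markers. The surfactant gene Sftpc read 12.32 and 11.92 there and 6.21 to 6.45 on the other 4 arrays.

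Promoter windows differed widely between these genes in their content of CG dinucleotides, the sites where vertebrate DNA is methylated. RefSeq windows of assembly GRCm38.p6, each 300 bases long with 250 before and 50 after the transcription start, were found for 7 of the 8 genes. Their CG counts were 2 for Kcnj15, 1 for Kcnmb1, 4 for Kcna5, 9 for Kcnj8, 16 for Abcc9, 18 for Kcnj2 and 36 for Kcnma1. The median over all 32851 windows of the table was 7. The windows of Kcnj15, the gene with the largest difference, and of the pore and the auxiliary subunit of the BK channel, Kcnma1 and Kcnmb1, are printed because they span this range. They lie at chr16:95257308-95257607 on the + strand, chr14:24004156-24004455 on the - strand and chr11:33962763-33963062 on the + strand. Each is written 5′ to 3′ along its gene with every CG dinucleotide in capitals.
Kcnj15: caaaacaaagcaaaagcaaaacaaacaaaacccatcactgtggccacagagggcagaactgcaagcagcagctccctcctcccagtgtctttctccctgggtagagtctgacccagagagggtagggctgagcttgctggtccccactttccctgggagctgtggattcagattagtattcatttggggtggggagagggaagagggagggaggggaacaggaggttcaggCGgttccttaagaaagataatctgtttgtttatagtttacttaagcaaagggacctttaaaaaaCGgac
Kcnma1: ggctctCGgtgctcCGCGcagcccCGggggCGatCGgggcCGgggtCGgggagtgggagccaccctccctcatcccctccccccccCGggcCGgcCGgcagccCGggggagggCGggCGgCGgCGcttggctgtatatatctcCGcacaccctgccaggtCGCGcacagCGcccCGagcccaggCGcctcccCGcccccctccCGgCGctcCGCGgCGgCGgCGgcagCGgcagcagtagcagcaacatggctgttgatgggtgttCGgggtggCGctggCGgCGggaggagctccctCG
Kcnmb1: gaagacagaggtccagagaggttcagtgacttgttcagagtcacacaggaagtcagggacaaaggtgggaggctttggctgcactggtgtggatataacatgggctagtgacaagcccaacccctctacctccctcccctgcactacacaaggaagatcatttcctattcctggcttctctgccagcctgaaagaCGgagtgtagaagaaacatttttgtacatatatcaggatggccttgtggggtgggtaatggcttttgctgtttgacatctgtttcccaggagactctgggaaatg
The BK pore and its auxiliary subunit, which assemble into the same channel in smooth muscle, thus had windows at opposite ends of the range. On either strand, the CArG box bound by serum response factor was in 0 of the 7 windows and in 1.63% of all windows. The letters GGGCGG were in 3 of the 7, those of Abcc9, Kcnj2 and Kcnma1, and in 35.7% of all windows. The letters TATAAA were in that of Kcnj15 alone among the 7, and in 13.6% of all windows.

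Kcnj15 stood higher in every DKO array than in any ApoE-KO array. It encodes Kir4.2, an inward rectifier best known from epithelia such as those of the kidney. The ApoE-KO arrays read 8.65, 7.98 and 8.35, and the DKO arrays read 10.32, 9.66 and 9.54. The lowest DKO array lay 0.90 above the highest ApoE-KO array. The ApoE-KO mean was 8.33 ± 0.33 and the DKO mean 9.84 ± 0.42 (SD, n = 3 each), a difference of 1.52 or 2.86-fold. The differences between same-numbered arrays were 1.67, 1.68 and 1.20, and without both replicate 3 arrays the mean was 1.68. Of the 25254 probe sets, none had a larger positive difference. Replicate 1 was the highest array within each genotype, and the genotype difference exceeded the spread within either group.

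**Figure D1:**
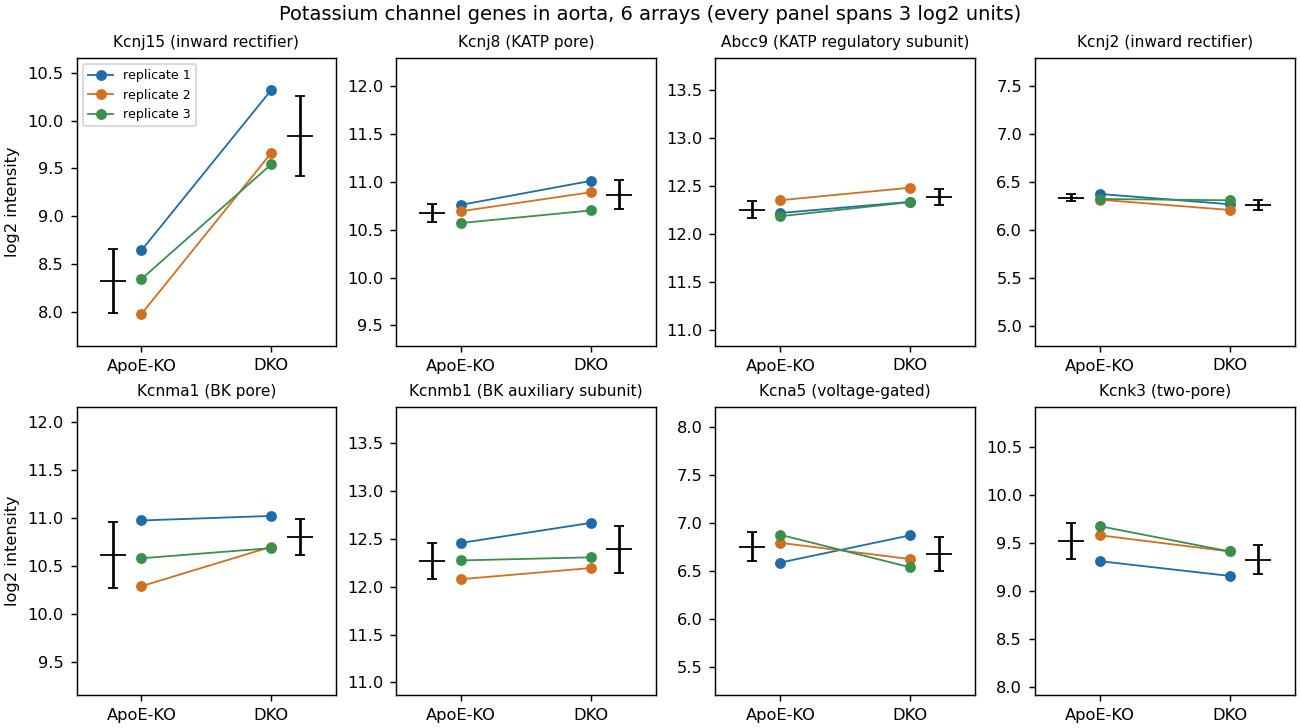
Log2 intensity (vertical axis) of the 8 genes in the 6 arrays, with lines joining arrays of the same replicate number and black marks for the mean ± SD of 3 arrays. Every panel spans 3 log2 units; Kcnj15 has means of 8.33 and 9.84, while the other 7 genes differ by at most 0.20 between means.

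Marker lists of cell types that an aorta sample can hold were read beside Kcnj15. Mesothelial markers also read higher in DKO: their mean level over 8 genes ran from 7.44 to 7.79 in ApoE-KO and from 8.07 to 8.48 in DKO. All 8 were higher on average in DKO, 7 did not overlap between the groups (12.0% of all probe sets did not), and 3 of them, Upk1b, Lrrn4 and Gpm6a, rose in limma with the replicate number as a block (adjusted p = 0.0309, 0.0467 and 0.0470; 0.174% of all probe sets passed that fit). None of the 8 passed without the block, and the list was chosen with earlier results of these data known. Within DKO, replicate 1 had the highest Kcnj15 level and the lowest mesothelial mean. Within ApoE-KO, replicate 2 was the lowest in both. White adipocyte markers had means of 10.06 to 10.72 in ApoE-KO against 9.43 to 10.27 in DKO, and 7 of 8 genes were lower on average. Of these 0 passed without the block and 3, Retn, Car3 and Cidec, fell with it, while 1 had groups without overlap. The part of either cell type in the Kcnj15 difference was not tested. In bulk tissue, more cells of a type and more RNA per cell cannot be told apart.

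Brown adipocyte markers were lower on average in 3 of 3 genes, with a median difference of -0.58. Their means were 8.56 to 9.30 in ApoE-KO against 8.03 to 8.68 in DKO. The median was -0.61, 0.24 and -0.91 in pairs 1 to 3, and 1 gene was lower in every pair. Nerve and Schwann cell markers were lower in 4 of 4 genes (median -0.52), with medians of -0.21, -0.24 and -1.05 in pairs 1 to 3. All 4 were lower in every pair. Their means were 7.26, 7.27 and 8.29 in ApoE-KO replicates 1 to 3 against 7.04 to 7.27 in DKO. Cardiac muscle markers were lower on average in 6 of 6 (median -0.14) and skeletal muscle markers in 4 of 4 (median -0.21). The cardiac median was 0.23, -0.23 and -0.37 in pairs 1 to 3, with 2 genes lower in every pair. The skeletal median was -0.03, -0.25 and -0.27, also with 2 genes lower in every pair. Of all probe sets, 19.1% were lower in every pair. In these 4 lists 0 genes passed without or with the block, and their part in the Kcnj15 difference was not tested. Fibroblast markers differed by a median of 0.044.

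Smooth muscle markers had means of 12.40 to 12.63 in ApoE-KO against 12.50 to 12.66 in DKO. Endothelial markers ran from 10.39 to 10.75 and from 10.53 to 10.84, pericyte markers from 9.82 to 10.04 and from 9.82 to 9.94, and macrophage markers from 9.97 to 10.17 and from 9.33 to 10.49. The ranges of these 4 lists overlapped between the groups. Lung epithelial markers stood at 11.19 and 10.51 in the replicate 3 arrays and at 6.87 to 7.06 in the other 4. Kcnj15 read 8.35 and 9.54 in the replicate 3 arrays. The part of lung tissue in the Kcnj15 difference was not tested.

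**Figure D2:**
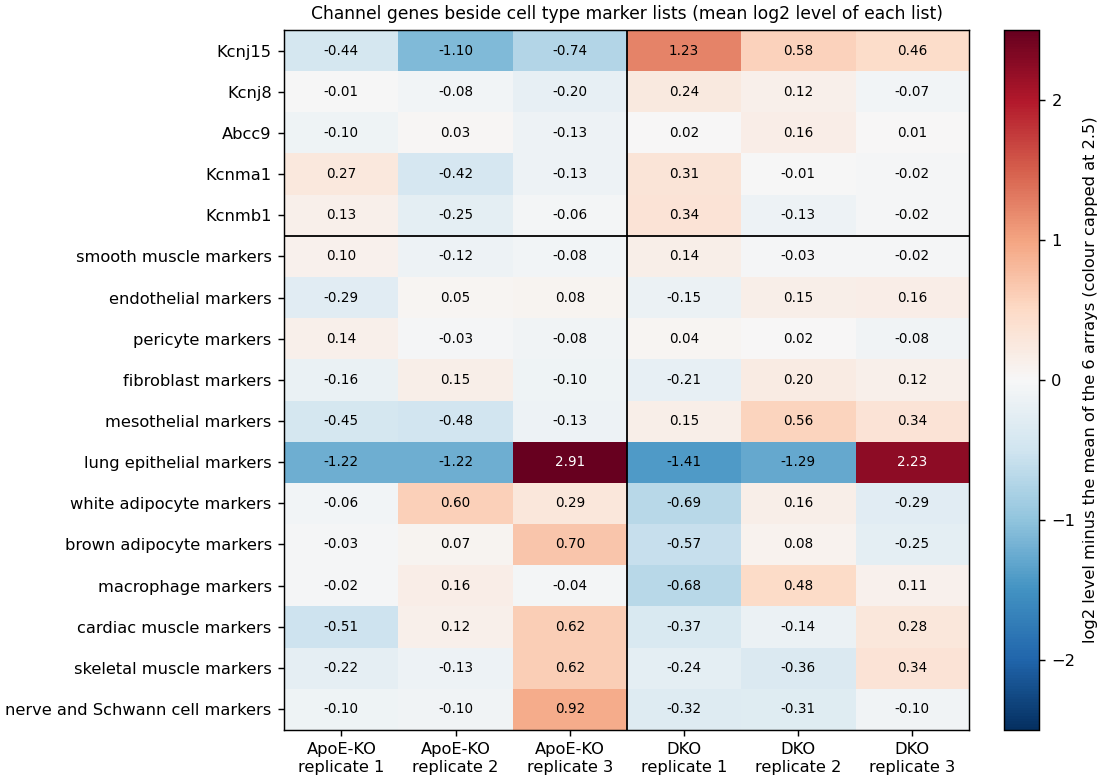
Deviation from the mean of the 6 arrays (log2, colour and printed number) for Kcnj15 and 4 smooth muscle channel genes above the line, and for the mean level of each cell type marker list below it. Kcnj15 and mesothelial markers have higher group means in DKO, and lung epithelial markers are high only in the 2 arrays numbered replicate 3.

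The genes whose profile over the 6 arrays lay nearest to that of Kcnj15 were sought by the root mean square distance between profiles centred on each gene's own mean. The nearest of 19751 genes was 2210407C18Rik, an uncharacterised gene, at a distance of 0.35. It read 8.83, 8.98 and 8.86 in ApoE-KO against 10.17, 9.94 and 9.91 in DKO, so its groups did not overlap. Snrpe, a core spliceosomal protein gene, lay at 0.40, and Slc25a34, a mitochondrial carrier gene, at 0.42. Sphkap, whose product tethers protein kinase A, and Casq1, the calcium-storing calsequestrin of skeletal muscle, followed at 0.42 each. All 5 were higher in DKO in each of the 3 pairs, by means of 0.75 to 1.12, and this choice by likeness to Kcnj15 fixes their direction. Of the other 7 channel genes Kcnma1 lay nearest, at 0.68 and rank 720.

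**Figure D3:**
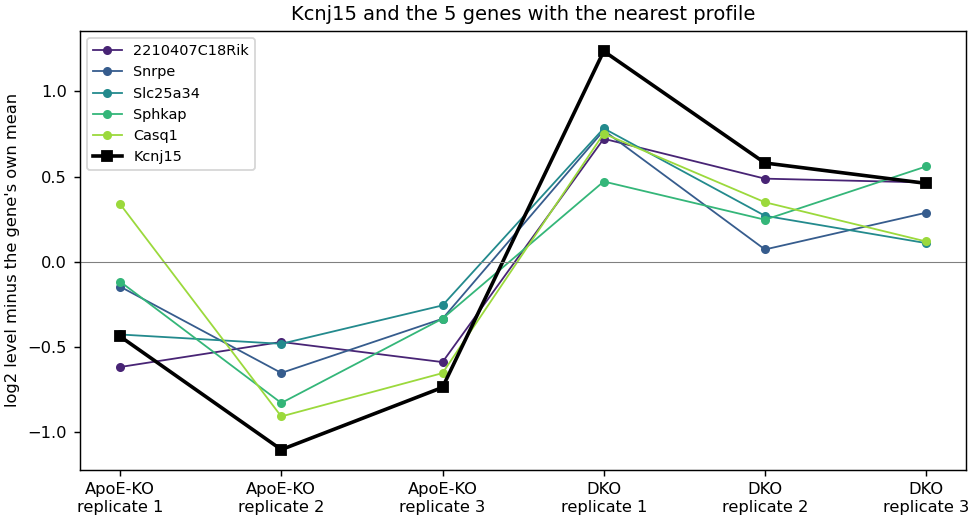
Log2 level minus the gene's own mean over 6 arrays (vertical axis) for Kcnj15 in black and the 5 genes with the smallest distance to it. Kcnj15 runs from -1.10 in ApoE-KO replicate 2 to 1.23 in DKO replicate 1, a wider range than any of the 5.

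The KATP channel genes Kcnj8 and Abcc9 were both slightly higher in each DKO array than in the ApoE-KO array of the same number, and neither passed the test. Kcnj8 encodes Kir6.1, the pore of the vascular KATP channel. It read 10.76, 10.69 and 10.57 in ApoE-KO against 11.01, 10.89 and 10.70 in DKO. Replicate 3 was the lowest of each group and the ranges overlapped. The difference was 0.19 (95% interval -0.06 to 0.44; limma, adjusted p = 0.862), with pairs at 0.25, 0.20 and 0.13. Abcc9, which encodes the sulfonylurea receptor SUR2 that gates this pore, read 12.22, 12.36 and 12.19 in ApoE-KO against 12.34, 12.49 and 12.34 in DKO. Here replicate 2 was the highest of each group. The difference was 0.13 (95% interval -0.06 to 0.32; limma, adjusted p = 0.866), and the pairs were close to each other at 0.12, 0.13 and 0.15. The genes are direct neighbours on chromosome 6 in the RefSeq gene table.

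The BK channel genes varied more between arrays of 1 genotype than between genotypes. Kcnma1 encodes the pore-forming subunit. It read 10.97, 10.29 and 10.58 in ApoE-KO against 11.02, 10.70 and 10.69 in DKO, so replicate 1 was the highest array of each group. The difference was 0.19 (95% interval -0.24 to 0.62; limma, adjusted p = 0.921), and its pairs of 0.047, 0.41 and 0.11 were uneven. It ran from 0.026 without ApoE-KO replicate 2 to 0.37 without ApoE-KO replicate 1, and was 0.079 without DKO replicate 1. A second Kcnma1 probe set, left out for its lower mean (6.52 against 10.71), read 6.29 to 6.68 in ApoE-KO against 6.41 to 6.64 in DKO, with pairs at -0.14, -0.16 and 0.36. The probe sets disagreed in direction in 2 of 3 pairs, and their average differed by 0.10.

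Kcnmb1, whose product makes the BK channel of smooth muscle more sensitive to calcium, read 12.45, 12.08 and 12.27 in ApoE-KO against 12.66, 12.19 and 12.30 in DKO. Replicate 1 was again the highest and replicate 2 the lowest of each group. The difference was 0.12 (95% interval -0.23 to 0.46; limma, adjusted p = 0.935) with pairs at 0.21, 0.12 and 0.032, and it became -0.019 without DKO replicate 1. In the gene table Kcnmb1 lies within the span of Kcnip1, whose own probe set differed by -0.019 between the groups.

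Kcnk3, the acid-sensitive leak channel TASK-1, was lower in DKO in each pair without passing the test. It read 9.31, 9.58 and 9.67 in ApoE-KO against 9.15, 9.41 and 9.41 in DKO, and replicate 1 was the lowest of each group. The difference was -0.20 (95% interval -0.49 to 0.10; limma, adjusted p = 0.869), with pairs at -0.15, -0.17 and -0.26.

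Kcnj2 and Kcna5 read low. Their means fell below 7.47, the 40th percentile of all probe sets, and the table holds no detection call that would show whether such levels exceed background. Kcnj2, the strong inward rectifier Kir2.1 that lets arteries dilate when external potassium rises, read 6.38, 6.32 and 6.32 in ApoE-KO against 6.27, 6.21 and 6.31 in DKO. Its groups did not overlap, but the gap from the highest DKO to the lowest ApoE-KO array was narrow. The difference was -0.08 (95% interval -0.23 to 0.08; limma, adjusted p = 0.903), with pairs at -0.11, -0.11 and -0.014. Kcna5, the delayed rectifier Kv1.5, read 6.59, 6.79 and 6.88 in ApoE-KO against 6.87, 6.62 and 6.54 in DKO. The pairs disagreed, at 0.28, -0.17 and -0.34, and the difference of -0.07 (95% interval -0.35 to 0.20; limma, adjusted p = 0.949) was smaller than the spread within either group.

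**Figure D4:**
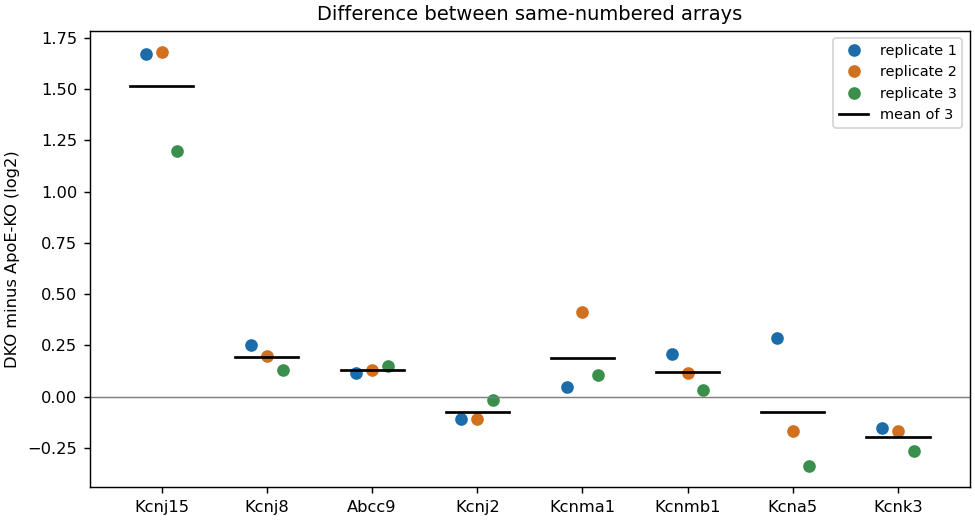
DKO minus ApoE-KO (log2) for arrays of the same replicate number, 1 coloured point per number, with a black bar at the mean of 3. The pairs of Kcnj15 lie between 1.20 and 1.68, and those of the other 7 genes between -0.34 and 0.41.

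Over the 7 genes other than Kcnj15, 0 passed limma after Benjamini-Hochberg adjustment over all probe sets, and 0 had an unadjusted p under 0.05. Over all 25254 probe sets the same fit passed 0 (0%), with 1419 (5.62%) at an unadjusted p under 0.05. With the replicate number as a block 0 of the 7 passed (adjusted p from 0.179 for Kcnj8 to 0.808 for Kcna5), while 44 of all probe sets did (0.174%). In that fit 3 of the 7, Kcnj8, Abcc9 and Kcnk3, had an unadjusted p under 0.05, against 4092 of all probe sets (16.2%). The 95% intervals of that fit were 0.06 to 0.32 for Kcnj8, 0.023 to 0.24 for Abcc9 and -0.34 to -0.05 for Kcnk3. All 3 pairs agreed upward in 4 of the 7 and downward in 2, where 21.2% and 19.1% of all probe sets did so. The arrays of the genotypes were fully separated in 1 of the 7, Kcnj2, against 12.0% over the whole table. The median difference of the 7 was 0.12, and that of all probe sets was -0.0024.

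Other potassium channel genes were taken from 4 family lists. Of 89 listed genes 84 had a probe set of their own, and 0 of them passed limma without or with the replicate block. Their differences ran from -0.35 for Kcnab2 to 0.48 for Kcnip4. An unadjusted p under 0.05 was found for 4 (4.76%) without and 12 (14.3%) with the block, near the shares over all probe sets. Of the 84, 12 (14.3%) had no overlap, and all 12 were lower in DKO. The 12.0% of all probe sets without overlap counts both directions.

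The balance of directions among these 84 genes moved with quantile normalization and with the level, and little with median centring. In the deposited values 61 (72.6%) were lower in DKO and 23 higher, with a median of -0.053. Of all probe sets 50.7% were lower. After centring on array medians 59 were lower and 25 higher, with a median of -0.051. After renewed quantile normalization 50 (59.5%) were lower and 34 higher, with a median of -0.017, against 50.5% lower over all probe sets. Of the 84, 53 had means below the 40th percentile, and 43 of those 53 (81.1%) were lower, where 64.6% of all probe sets at that level were. Above it 18 of 31 (58.1%) were lower, against 41.4% of all probe sets there. Of the 12 genes without overlap, 8 were among the 53 and 4 among the 31, where 9.12% and 4.71% of all probe sets were lower without overlap.

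Among inward rectifiers and the KATP subunit gene Abcc8, 3 of 13 measured genes were higher and 10 lower, with a median of -0.044, and 0 passed. Kcnj13, the epithelial rectifier Kir7.1, had the smallest p of this family with the block (-0.28, adjusted p = 0.211). It read 6.89, 6.97 and 7.65 in ApoE-KO against 6.75, 6.75 and 7.18 in DKO, highest in replicate 3 of each group. Kcnj5 and Kcnj9, subunits of G protein-gated rectifiers, differed by -0.16 and -0.11, and Kcnj10, the glial rectifier Kir4.1, by -0.19. Kcnj3 and Kcnj6, also subunits of G protein-gated rectifiers, differed by -0.00089 and -0.07, each with pairs of both signs. Kcnj5 was the only non-overlapping gene of this family, at 6.72 to 6.74 in ApoE-KO against 6.53 to 6.62 in DKO. Kcnj16, which adjoins Kcnj2, differed by -0.044, and Kcnj6, the nearest measured gene before Kcnj15, by -0.07. Kcnj3, Kcnj5, Kcnj6, Kcnj9, Kcnj10, Kcnj13 and Kcnj16 had means below 7.47, the 40th percentile of all probe sets. At that level 64.6% of all probe sets were lower in DKO, and 9.12% were lower without overlap.

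In the voltage-gated family 14 of 46 measured genes were higher and 32 lower, with a median of -0.057. Of the 46, 8 had groups without overlap, all lower in DKO, where 12.0% of all probe sets had none in either direction. In all 3 pairs 17 were lower and 8 higher, against 19.1% and 21.2% of all probe sets. Again 0 passed, and 3 of the 4 with the smallest p with the block were higher in DKO. Kcnip4, a calcium-binding auxiliary subunit of A-type channels, read 9.40, 8.64 and 8.84 in ApoE-KO against 9.84, 9.14 and 9.35 in DKO. Its pairs were even, at 0.43, 0.50 and 0.51, while the group ranges overlapped because replicate 1 was the highest in both. The difference of 0.48 had an adjusted p of 0.862 in limma and of 0.0503 with the block. Kcnd3, the A-type pore Kv4.3 with which such subunits assemble, differed by 0.31 with pairs at 0.26, 0.33 and 0.35 (adjusted p = 0.862 without and 0.0866 with the block).

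Kcnab1, an auxiliary subunit of Kv1 channels, differed by 0.38, with pairs at 0.16, 0.59 and 0.40 (adjusted p = 0.883 without and 0.123 with the block). Kcnab2, a second auxiliary subunit of Kv1 channels, went the other way. It read 8.13, 8.11 and 8.03 in ApoE-KO against 7.61, 7.94 and 7.66 in DKO, with no overlap and a difference of -0.35 (adjusted p = 0.861 without and 0.137 with the block).

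Calcium- and sodium-activated channels other than the BK pore and its smooth muscle subunit were higher in 3 of 12 genes and lower in 9, with a median of -0.038 and 0 passing. Kcnn3, the small-conductance channel SK3 that serves endothelial hyperpolarisation, had even pairs of 0.34, 0.31 and 0.31. It read 8.94, 9.42 and 9.37 in ApoE-KO against 9.29, 9.73 and 9.68 in DKO (difference 0.32; adjusted p = 0.862 without and 0.0827 with the block). Kcnn4, the intermediate-conductance channel of endothelium, was higher by 0.12, with pairs at 0.11, 0.11 and 0.14. Kcnn1, the small-conductance channel SK1 (-0.14), and Lrrc26, a BK auxiliary subunit of secretory epithelia (-0.13), were lower. All 3 pairs were positive in 6 of the 8 endothelial markers and negative in 1, Egfl7, with 0 of the 8 passing. Of all probe sets, 21.2% were higher and 19.1% lower in all 3 pairs. The part of endothelial cells in the Kcnn3 and Kcnn4 differences was not tested.

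Tandem-pore channels other than Kcnk3 were higher in 3 of 13 genes and lower in 10, with a median of -0.064 and 0 passing. Like Kcnk3, the genes with the smallest p were lower in DKO: Kcnk18, the calcium-regulated leak channel TRESK (-0.18), Kcnk6, the channel TWIK2 (-0.14), Kcnk12, the channel THIK2 (-0.15), and Kcnk2, the mechanosensitive TREK1 (-0.12). Of these Kcnk18 alone did not overlap, at 6.60 to 6.68 in ApoE-KO against 6.38 to 6.54 in DKO. Kcnk18 and Kcnk2 had means below the 40th percentile, where 64.6% of all probe sets were lower and 9.12% were lower without overlap. Adjusted p-values with the block ran from 0.317 for Kcnk18 to 0.440 for Kcnk2.

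**Figure D5:**
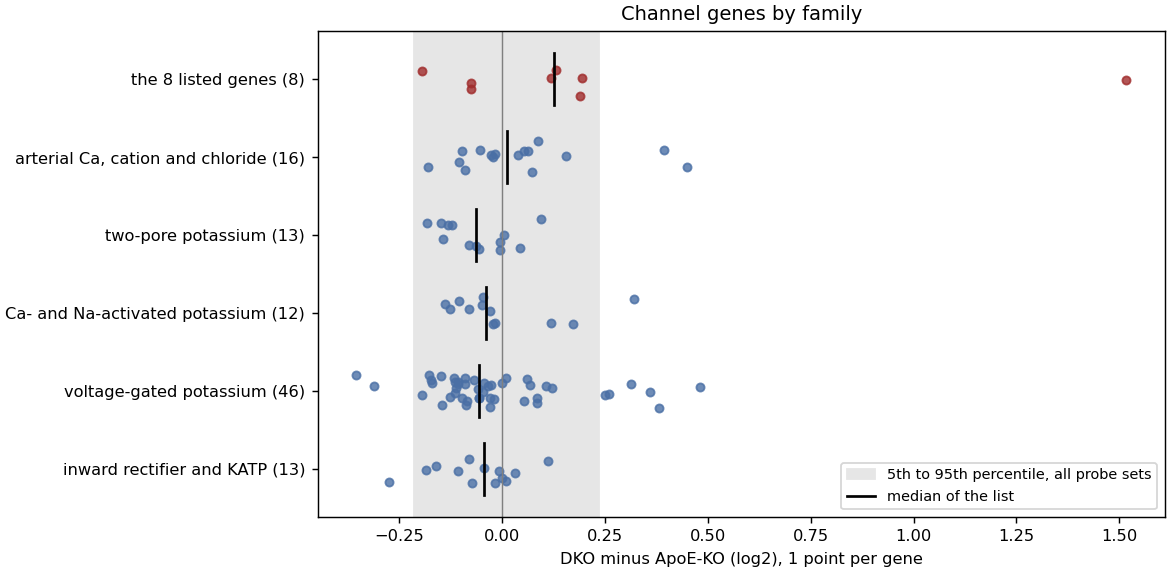
DKO minus ApoE-KO (log2, horizontal axis) for each measured gene of the channel families, with the number of genes in brackets, a black bar at each median and a grey band from the 5th to the 95th percentile of all probe sets (-0.21 to 0.23). Kcnj15, which was selected on its difference, stands at 1.52, and the highest gene of the family lists is Kcnip4 at 0.48.

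Channels that carry calcium, other cations or chloride in arterial muscle, on which the potassium channels act through the membrane potential, split evenly: 8 of 16 measured genes were higher and 8 lower, with a median of 0.011, and 0 passed. Ano1, the calcium-activated chloride channel that depolarises smooth muscle, read 10.77, 10.17 and 10.25 in ApoE-KO against 11.06, 10.80 and 10.68 in DKO. Its difference was 0.45, with pairs at 0.29, 0.63 and 0.43 (limma, adjusted p = 0.861 without and 0.0789 with the block). Cacna1d, an L-type calcium channel pore, was the gene of this list without overlap, at 7.98 to 8.72 in ApoE-KO against 8.78 to 8.84 in DKO. Its difference was 0.39, with pairs at 0.12, 0.80 and 0.27, the widest where ApoE-KO replicate 2 read low. Cacna1g, a T-type calcium channel pore, differed by -0.18, and Ryr2, the calcium release channel of the sarcoplasmic reticulum, by 0.16, each with pairs of both signs.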

How the data were processed

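Aortic RNA of 6 mouse samples was hybridised to 6 whole-transcript arrays, 1 per sample. The authors deposited log2 intensities of 25254 probe sets, and the submitters' processing notes name RMA, Partek and the mouse build mm9 without versions. Removal of a batch effect is neither stated nor denied by these sources. Probe sets were named with the platform annotation; 21496 name 1 gene, 1565 several and 2193 none. RefSeq tables (GRCm38.p6) gave names, neighbours and promoter windows.

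All probe sets were fitted with limma 3.58.1 in R 4.3.3 (lmFit, eBayes with trend), DKO minus ApoE-KO, two-sided, with Benjamini-Hochberg adjustment at 0.05. The fits were tested on simulated data whose noise was independent between arrays, so they cannot judge the block where same-numbered arrays deviate together. Of 200 probe sets changed by 1.5 log2 units, 96.0% were recovered without the block and 84.5% with it. False calls numbered 8 and 2. The series text gives 3 mice per group. Same-numbered arrays deviated together from their group means (correlations 0.60, 0.50 and 0.64 over probe sets), and this, not a label, is why the numbers were treated as pairs. Exact permutation of 3 against 3 arrays has a smallest p of 0.1 and was not used.

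The members and lists were chosen with earlier results of these data known. Named genes are the members, the 4 genes per channel list with the smallest p in the blocked fit, measured neighbours of members, and the 5 profiles nearest to Kcnj15. Kcnj3 is named beside the other G protein-gated subunits. Marker genes come from the marker lists, which were also chosen with those results known. Alternatives were the replicate block, a filter at the 40th percentile, eBayes without trend or robust, quantile normalization of the deposited values, centring on array medians, array weights, averaged probe sets of a gene, and each array or pair left out.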

Additional observations from a re-analysis of the deposited data

How the results depend on the processing

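The 7 genes other than Kcnj15 passed under none of the alternatives run (adjusted p of at least 0.179), and 115 of their 117 values kept their direction. Kcnmb1 ran from -0.019, without DKO replicate 1, to 0.22 with 1 array left out, Kcnma1 from 0.026 to 0.37, and Kcna5 turned to 0.057 with the replicate block and without both replicate 3 arrays. The Kcnj15 difference ran from 1.28 to 1.68 with 1 array left out. Calls over all probe sets rose from 0 to 44 with the replicate block, to 415 with the block and without both replicate 1 arrays, and to 48 without both replicate 3 arrays, but were 0 with the block and without both replicate 2 arrays; with 1 array left out they ran from 0 to 8, the 8 being without DKO replicate 3. The block over all 6 arrays changed no call among the channel genes other than Kcnj15, which was not tested. With the block and without both replicate 1 arrays, 2 voltage-gated genes, Kcnab1 and Kcnip4, and 1 calcium, cation or chloride channel gene, Ano1, passed, and the voltage-gated median was -0.094; without both replicate 3 arrays the inward rectifier median was -0.14. Above the 40th percentile the medians were 0.12 for calcium- and sodium-activated, -0.14 for tandem-pore and 0.052 for calcium, cation and chloride channels, where fewer genes enter. Kcnj2 and Kcna5, which are in none of these lists, also drop out under that filter. The tandem-pore median was -0.019 after quantile normalization, -0.079 with array weights and -0.090 to -0.049 with 1 array left out, and the calcium, cation and chloride median then ran from -0.032 to 0.031. The cause of these shifts was not tested. Without detection calls, low levels cannot be separated from background.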

Other observations

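The nearest gene after Kcnj15 on chromosome 16 in the RefSeq table is Erg, which encodes a transcription factor of endothelial identity. It was higher in every DKO array, at 10.40, 10.25 and 10.41, than in any ApoE-KO array, at 10.12, 9.69 and 10.06. The difference was 0.40 (95% interval 0.09 to 0.71), which did not pass (limma, adjusted p = 0.861 without and 0.0827 with the replicate block). Erg was the only 1 of 8 endothelial markers whose groups did not overlap. Egfl7, a secreted endothelial protein, stood at -0.31, the only marker of the 8 with a negative difference. Kcnj6, the nearest measured gene on the other side of Kcnj15, differed by -0.07. Of the 14 nearest measured neighbours of the 8 channel genes that are not among them, Erg alone had non-overlapping groups, where 12.0% of all probe sets did. Of the 14, 0 passed limma without or with the block, 2 had an unadjusted p under 0.05 without it and 3 with it, against 5.62% and 16.2% of all probe sets.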
